A study of Mus musculus with 6 samples.

Results

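Notch signalling passes between touching cells, and 10 of its genes are described here: the ligands Jag1, Jag2 and Dll1, the receptors Notch1, Notch2 and Notch3, and the effectors Hes1, Hes5, Hey1 and Hey2. They were chosen by name, matched to Ensembl identifiers, and all 10 were found among the 39179 genes of the count files. All 10 were also among the 14723 genes with at least 1 CPM (counts scaled to the total on genes of the library) in 3 or more of the 6 libraries. The libraries came from the sensory epithelium of the inner ear of wild-type C57Bl/6J mice at postnatal day 0, with 3 libraries from the cochlea, the organ of hearing, and 3 from the vestibule, the organ of balance. No mouse was treated or carried a mutant allele, and tissue of males and females was pooled. Each library was made from 450 ng of RNA, and 20 inner ears of 10 mice were dissected in all. The labels do not say that the libraries of a tissue came from separate pools of RNA, so the p-values measure the spread between these libraries, which may be technical. The study set mRNA beside protein in these tissues among others, and here the mRNA of the Notch genes is compared between cochlea and vestibule.

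A Notch ligand sits in the membrane of one cell and binds a Notch receptor on its neighbour. The receptor is then cut, its inner part enters the nucleus, and there it joins the DNA-binding protein Rbpj and switches on genes of the Hes and Hey families, which encode repressors. In the inner ear this exchange is known for a pair of tasks: Jag1 helps to set up the sensory patches, and later the ligands Dll1 and Jag2 on hair cells hold back their neighbours, which become supporting cells.

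The effectors are known as direct targets of the receptor and Rbpj, so their promoters were searched for GTGGGAA, a core letter string to which Rbpj binds, on both strands. Promoters are RefSeq sequences of GRCm38.p6, from 250 bases before to 50 after the start of a gene, and 8 of the 10 members had at least 1, with 9 promoters in all. Hes1 and Hey1 were not among the 8. The string was found in 2 of the 9 member promoters, those of Hes5 and Hey2, and each of these held it on both strands without overlap. Of all 32851 promoters in the table, 6.38% held the string and 0.256% held it 2 or more times. In the pathway list 34 of the 44 genes had a promoter, with 44 promoters in all. The string was found in 5 of these promoters, those of Aph1a, Hes7, Lfng, Psen2 and Spen. Of these genes Psen2 was called higher in the vestibule, Hes7 was not tested and the others did not pass the test. The stretches of Hes5 and Hey2 are printed because they are the member promoters that hold it. Capitals mark the string or its reverse complement, and each line reads 5′ to 3′ on the strand of the gene. The Hes5 line is chr4:154960673-154960922 on the plus strand, and the Hey2 lines are chr10:30842802-30843033 and chr10:30842769-30842798 on the minus strand.
Hes5 promoter, -250 to -1: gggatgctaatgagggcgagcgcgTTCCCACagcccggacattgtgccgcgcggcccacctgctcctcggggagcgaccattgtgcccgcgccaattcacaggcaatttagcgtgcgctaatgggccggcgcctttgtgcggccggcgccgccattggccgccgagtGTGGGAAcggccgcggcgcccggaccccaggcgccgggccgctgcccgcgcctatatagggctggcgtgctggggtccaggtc
Hey2 promoter, -250 to -19: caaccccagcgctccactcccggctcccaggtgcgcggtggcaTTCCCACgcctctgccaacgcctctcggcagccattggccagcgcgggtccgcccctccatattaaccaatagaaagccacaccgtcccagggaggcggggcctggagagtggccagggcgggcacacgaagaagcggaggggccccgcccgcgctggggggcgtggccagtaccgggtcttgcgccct
Hey2 promoter, -15 to 14: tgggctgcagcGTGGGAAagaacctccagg
In Hes5 the matches lay at -226 to -220 and at -83 to -77, counted from the RefSeq start of the gene as 0. In Hey2 they lay at -207 to -201 and at -4 to 2, from a RefSeq start that lies 18 bases inside the gene as GENCODE vM21 draws it, so the second match is within the annotated gene. A match is a description of the letters and not of binding. A second string, CACGTG, an E box that Hes and Hey proteins are known to bind, was found in 0 of the 9 member promoters, in 5 of the 44 of the pathway list and in 7.15% of all promoters.

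Between the tissues, 5 members were higher in the cochlea (Jag1, Notch3, Hes5, Hey1 and Hey2), 1 was higher in the vestibule (Dll1) and 4 did not pass the test (Jag2, Notch1, Notch2 and Hes1). The test was edgeR's quasi-likelihood test on the counts after TMM scaling, fitted on all 14723 genes with Benjamini-Hochberg adjustment and a false discovery rate (FDR) of 0.05. It called 11.6% of all genes higher in the cochlea and 15.8% higher in the vestibule, so 57.6% of its calls were higher in the vestibule. That split was 68.8% with scaling by library size alone and 43.9% with a trend on gene length removed, and these moved the median of all genes to 0.13 and -0.10. Fold changes are given as log2 of vestibule over cochlea, with values below 0 for genes higher in the cochlea. The median log2 fold change over the members was -0.72, beside 0.0048 over all genes. In 5 members all cochlear libraries lay above all vestibular ones in CPM, as in 14.3% of all genes, and in 1 member all vestibular libraries lay above, as in 27.5%. These are the same 6 members that passed the test. Hes5 is counted among the 5, although it passed the filter on low values through the cochlea alone and so had to differ. Without cochlea replicate 2 the test called 2 members higher in the cochlea, since Notch3 and Hey2 missed the threshold and Hes5 was not tested, and without vestibule replicate 1 or 2 it called 3, since Notch3 and Hey2 missed it. Without cochlea replicate 3 it called 2 members higher in the vestibule, with Jag2 added. The sensory epithelium holds many cell types, and in such samples fewer cells of a type and less RNA per cell cannot be told apart.

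**Figure D1:**
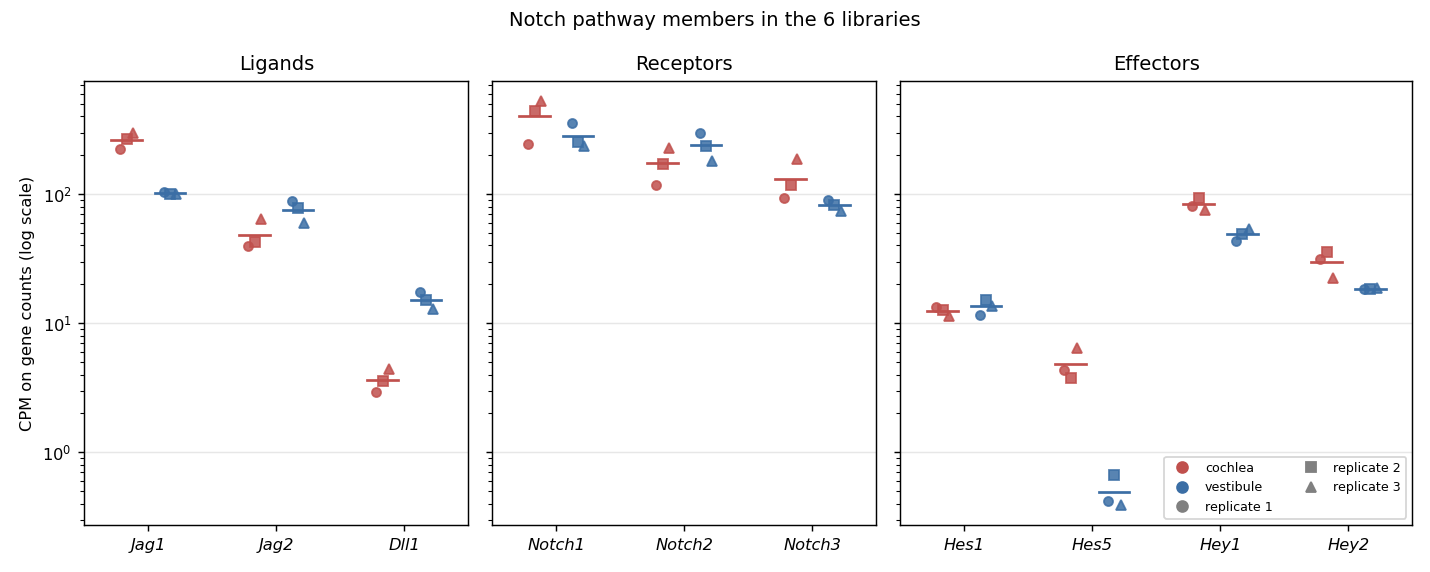
CPM of the 10 members in each library (log scale), with cochlea in red, vestibule in blue, a symbol for each replicate and a bar at the mean of 3 libraries. Jag1, Notch3, Hes5, Hey1 and Hey2 lie higher in every cochlear library and Dll1 in every vestibular one, while the libraries of the other 4 members overlap.

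Among the ligands the tissues differed in opposite directions. Jag1, the ligand of the sensory patch and of supporting cells, had 226, 266 and 299 CPM in cochlea replicates 1, 2 and 3, and 104, 101 and 99.4 CPM in vestibule replicates 1, 2 and 3. The vestibular libraries lay close together and far below the lowest cochlear one. Its level was 2.82-fold higher in the cochlea, a log2 fold change of -1.50 ± 0.14 (SE, n = 3 against 3) with an edgeR adjusted p of 0.000104.

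Dll1, a ligand of young hair cells, went the other way. It had 2.94, 3.58 and 4.41 CPM in the cochlea and 17.5, 15.2 and 12.9 CPM in the vestibule. Every vestibular library was above every cochlear one, by a wide margin. This is a log2 fold change of 1.93 ± 0.21 (SE, n = 3 against 3), or 3.82-fold, with an edgeR adjusted p of 0.000212. In the cochlea this rests on 72, 103 and 129 counts, and in the vestibule on 590, 391 and 329. Dll1 shares 867 exonic bases with A930024N18Rik on the opposite strand, which had 22 to 95 counts per library and up to 37.5% of the counts of Dll1. The libraries were made with a stranded kit, but the strand setting of the counting is not given in the sources used here, so the part of this partner in the Dll1 counts was not tested.

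Jag2, the other ligand of hair cells, did not pass the test. It had 39.8, 42.4 and 63.7 CPM in the cochlea and 87.9, 78.7 and 59.3 CPM in the vestibule. Cochlea replicate 3 lay above vestibule replicate 3, so the tissues overlap. For Jag2 the log2 fold change was 0.51 ± 0.20 (SE), with a 95% interval of 0.06 to 0.96 and an edgeR adjusted p of 0.0914. Without cochlea replicate 3 it was 0.73 with an adjusted p of 0.0137, past the threshold, and it also passed with all libraries when a trend on gene length was removed and centred (0.54, adjusted p of 0.037).

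Of the receptors, 1 of 3 passed the test, beside 27.4% of all tested genes. Notch1, the main receptor of the developing sensory epithelium, had 244, 437 and 524 CPM in the cochlea and 357, 255 and 234 CPM in the vestibule. Cochlea replicate 1 lay among the vestibular libraries, and the other two cochlear libraries lay above all of them. For Notch1 the log2 fold change was -0.64 ± 0.27 (SE), with a 95% interval of -1.26 to -0.02 and an edgeR adjusted p of 0.118. Without cochlea replicate 1 it was -0.91 with an adjusted p of 0.0125, past the threshold.

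Notch2, a receptor of many epithelia, had 118, 171 and 229 CPM in the cochlea and 298, 237 and 181 CPM in the vestibule. The tissues overlap, since cochlea replicate 3 was above vestibule replicate 3. For Notch2 the log2 fold change was 0.34 ± 0.24 (SE), with a 95% interval of -0.22 to 0.89 and an edgeR adjusted p of 0.349. It was 0.11 without cochlea replicate 1, 0.20 without vestibule replicate 1 and 0.56 without cochlea replicate 3, and none of these passed the test (edgeR adjusted p of 0.762, 0.66 and 0.0978).

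Notch3, known as the receptor of the muscle cells and pericytes of blood vessels, had 92.7, 117 and 186 CPM in the cochlea and 89.4, 82.5 and 74.0 CPM in the vestibule. The tissues did not overlap, although cochlea replicate 1 and vestibule replicate 1 lay side by side. The log2 fold change was -0.81 ± 0.23 (SE), or 1.75-fold, with an edgeR adjusted p of 0.0302. Without cochlea replicate 3, the highest library, it was -0.51 with an adjusted p of 0.0407. The call was lost without cochlea replicate 2 (-0.86, adjusted p of 0.0714) and without vestibule replicate 1 (-0.82, 0.0718), 2 (-0.79, 0.104) or 3 (-0.76, 0.0763). It was also lost with scaling by library size alone, where the log2 fold change was -0.69 with an adjusted p of 0.0687.

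The effectors, which are read as output of the pathway, were higher in the cochlea in 3 of 4 genes, Hes5 included, beside 11.6% of all genes. Of the Hes and Hey genes tested outside the members, Heyl was called higher in the vestibule (0.61) and Hes6 higher in the cochlea (-0.36). Hes5, a repressor that Notch switches on in supporting cells, had 4.33, 3.78 and 6.47 CPM in the cochlea and 0.416, 0.662 and 0.393 CPM in the vestibule. The counts were 106, 109 and 189 in the cochlea against 14, 17 and 10 in the vestibule. The exact 95% Poisson intervals, which cover counting error only, did not overlap: the lowest cochlear bound was 3.11 CPM and the highest vestibular one 1.06 CPM. With all libraries the log2 fold change was -3.43 ± 0.32 (SE, n = 3 against 3), or 10.8-fold, with an edgeR adjusted p of 0.000109. Hes5 passed the filter on low values through the cochlea alone, so among the genes tested it had to differ.

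Hey1, a repressor of the Hey family, had 81.2, 93.3 and 75.3 CPM in the cochlea and 43.6, 49.2 and 53.9 CPM in the vestibule. All cochlear libraries were above all vestibular ones. The log2 fold change was -0.89 ± 0.16 (SE), or 1.85-fold, with an edgeR adjusted p of 0.00375.

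Hey2, its close relative, had 31.6, 35.3 and 22.4 CPM in the cochlea and 18.5, 18.4 and 18.8 CPM in the vestibule. The vestibular libraries were nearly equal, and the lowest cochlear one, replicate 3, lay just above them. The log2 fold change was -0.81 ± 0.19 (SE), or 1.75-fold, with an edgeR adjusted p of 0.0149. The call was lost without cochlea replicate 2 (-0.63, adjusted p of 0.0569) and without vestibule replicate 1 (-0.76, 0.058) or 2 (-0.77, 0.0708).

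Hes1, a Notch target that other pathways also switch on, had 13.2, 12.7 and 11.3 CPM in the cochlea and 11.6, 15.3 and 13.6 CPM in the vestibule. Vestibule replicate 1 lay within the cochlear range, and vestibule replicates 2 and 3 lay above all cochlear libraries. The log2 fold change was 0.00083 ± 0.18 (SE), with an edgeR adjusted p of 0.998 and a 95% interval of -0.40 to 0.40, so a difference of up to 0.40 in either direction is within the error of these libraries. Its sign turned with the scaling.

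Levels of different genes were compared per length, on the deposited RPKM (reads scaled to the length of the gene and the size of the library). In the cochlea Jag1 was the highest member at 45.3 ± 6.3 RPKM (SD, n = 3), followed by Hey1 at 37.9 and Notch1 at 28.3. Notch2, Notch3, Jag2 and Hey2 followed, between 16.5 and 11.7, and from Jag1 to Hey2 each gene overlapped the next in its range over libraries. Hes1 at 6.11, Hes5 at 3.58 and Dll1 at 0.867 RPKM came last, each without overlap with the gene before. In the vestibule Notch2, Hey1, Notch1, Jag2 and Jag1 formed the top group, between 22.8 and 17.5 RPKM, with each gene overlapping the next. Notch3 at 10.2 and Hey2 at 7.30 came next, each apart from the gene before, and Hes1 at 6.64 overlapped Hey2. Dll1 at 3.62 and Hes5 at 0.367 RPKM came last, each apart from the gene before. The lengths behind the RPKM were shorter than the annotation used here for Jag2 (4.05 kb against 6965 exonic bases), Hey1 (2.20 kb against 3265) and Hey2 (2.54 kb against 4593), so the order depends on the annotation.

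The make-up of each class was given as the share of each member in the summed RPKM of its class. Among the ligands Jag1 held 78.65%, 80.13% and 75.38% in the cochlear libraries and 40.94%, 42.89% and 49.1% in the vestibular ones. Jag2 held 20.5% ± 2.4 (SD, n = 3) of the cochlear sum and 46.6% ± 4.0 of the vestibular one. Dll1 held 1.49% ± 0.06 of the cochlear sum and 9.09% ± 0.36 of the vestibular one. The Jag1 to Jag2 ratio was 3.86 ± 0.55 (SD) in cochlear and 0.961 ± 0.18 in vestibular libraries. With the annotation lengths used here it was 6.63 ± 0.95 against 1.65 ± 0.31, and with either set of lengths the tissues did not overlap.

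Among the receptors Notch1 held the largest share in the cochlea, at 45.9% ± 3.5 (SD, n = 3), and 37.5% ± 1.9 in the vestibule. Notch2 held 27.1% ± 0.92 in the cochlea and 42.9% ± 2.3 in the vestibule, where it was the largest. Notch3 held 27.0% ± 2.9 in the cochlea and 19.6% ± 2.2 in the vestibule. The Notch1 to Notch2 ratio was 1.70 ± 0.18 (SD) in cochlear and 0.878 ± 0.079 in vestibular libraries, and it did not overlap between the tissues, although neither gene passed the test on its own.

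Among the effectors Hey1 held 63.9% ± 1.2 (SD, n = 3) of the cochlear sum and 60.8% ± 2.0 of the vestibular one, and Hey2 held 19.6% ± 2.7 and 20.1% ± 1.7. These shares overlapped between the tissues. Hes1 held 10.4% ± 0.74 in the cochlea and 18.2% ± 1.6 in the vestibule, and Hes5 held 6.20% ± 2.4 and 1.004% ± 0.28, both without overlap. Shares in a class add up to the whole, so they are not independent, and a share can differ where the level of its gene does not. Hes1 itself had 6.11 RPKM in the cochlea and 6.64 in the vestibule. For each of the 8 shares that did not overlap, a two-sided exact permutation test gave p = 0.1, the smallest that 3 libraries against 3 allow, and 0.125 after Benjamini-Hochberg adjustment over the 10 shares. For Hey1 the exact permutation p was 0.2 and for Hey2 0.8.

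**Figure D2:**
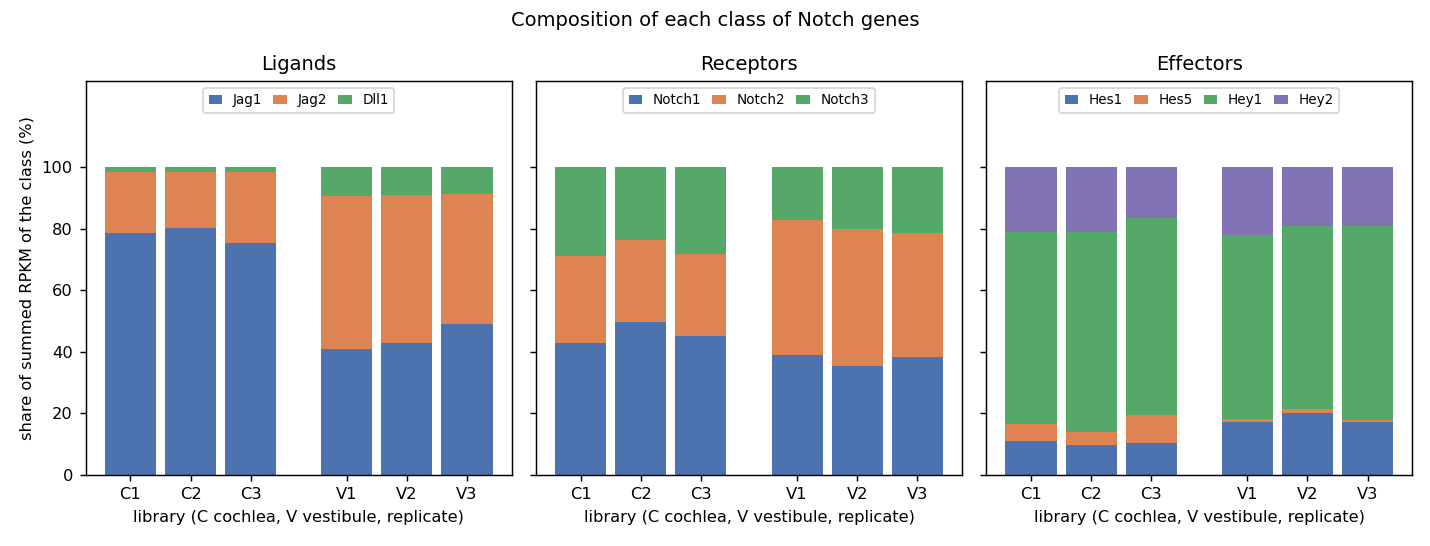
Share of each member in the summed RPKM of its class (%), as stacked bars for each library (C cochlea, V vestibule, with the replicate number). Jag1 fills 75.38% to 80.13% of the ligand bars in the cochlea and 40.94% to 49.1% in the vestibule, where Jag2 and Dll1 take more.

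Summed over a class, the ligands had 58.2 ± 9.5 RPKM (SD, n = 3) in cochlear libraries and 39.7 ± 4.6 in vestibular ones. The effectors had 59.3 ± 6.0 and 36.5 ± 3.0 in the same order. Both sums lay higher in every cochlear library. The receptors had 61.2 ± 21.0 RPKM in cochlear and 52.8 ± 11.01 in vestibular libraries, which overlapped.

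The other genes of the pathway are a list of 44, of which 40 passed the filter. Of these, 5 were higher in the cochlea, 5 higher in the vestibule and 30 did not pass the test, beside 11.6% and 15.8% of all genes called in those directions, with a median log2 fold change of 0.03. The split was 3 against 6 with scaling by library size alone and 4 against 7 without cochlea replicate 3. Without cochlea replicate 2 it was 3 against 5, without vestibule replicate 1 it was 3 against 4 and without vestibule replicate 2 it was 3 against 3. Dlk1, Hes2, Hes3 and Hes7 did not pass the filter. Of the 9 genes of receptor cleavage Psen2 was called, and of the 4 genes of ligand endocytosis 0 were, with edgeR at an FDR of 0.05, beside 27.4% of all tested genes.

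Rbpj, the DNA-binding partner of the cut receptor, was among those higher in the cochlea. It had 169, 171 and 181 CPM in the cochlea and 112, 114 and 114 CPM in the vestibule. The libraries of a tissue lay close together, and the log2 fold change was -0.74 with an edgeR adjusted p of 0.00165. Nrarp, a Notch target that damps the signal, had 35.3, 39.7 and 39.3 CPM in the cochlea and 21.9, 25.4 and 26.3 CPM in the vestibule. Its log2 fold change was -0.75 with an edgeR adjusted p of 0.00565, and the tissues did not overlap. Dll3, a ligand that does not activate receptors on neighbours, had 4.37, 6.18 and 7.66 CPM in the cochlea and 2.35, 3.00 and 3.26 CPM in the vestibule, without overlap. Its log2 fold change was -1.20 with an edgeR adjusted p of 0.0115. Poglut1, which adds glucose to the receptors, and Hes6, a relative of the Hes repressors, were the other 2 called higher in the cochlea, at -0.44 and -0.36 with edgeR adjusted p of 0.0292 and 0.046. The call of Hes6 was lost without any 1 library (adjusted p of 0.0711 to 0.165), and that of Poglut1 without cochlea replicate 1 or 2 or vestibule replicate 1 or 2 (0.0718 to 0.162).

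Notch4, the receptor known from endothelium, was among those higher in the vestibule. It had 6.46, 4.79 and 11.4 CPM in the cochlea and 21.8, 20.0 and 21.4 CPM in the vestibule. The tissues did not overlap, and the log2 fold change was 1.37 with an edgeR adjusted p of 0.00642. Mfng, a fringe enzyme that adds sugars to the receptors and so changes which ligands they answer, had 16.2, 13.4 and 16.8 CPM in the cochlea and 34.3, 36.7 and 41.8 CPM in the vestibule. Its log2 fold change was 1.17 with an edgeR adjusted p of 0.000679, without overlap. The other fringe enzymes, Lfng (-0.02) and Rfng (-0.07), were not called, and the difference between the enzymes was not tested. Dlk2, a ligand-like protein, had 19.1, 15.2 and 24.1 CPM in the cochlea and 40.8, 38.71 and 36.5 CPM in the vestibule, without overlap. Its log2 fold change was 0.88 with an edgeR adjusted p of 0.00412. Psen2, of the enzyme that cuts the receptor, and Heyl, the third Hey gene, were the other 2 called higher in the vestibule, at 0.54 and 0.61 with edgeR adjusted p of 0.0292 and 0.0105. The call of Psen2 was lost without cochlea replicate 1 or 2 or vestibule replicate 1 or 2 (adjusted p of 0.0745 to 0.0989), and that of Heyl without vestibule replicate 2 (0.057).

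**Figure D3:**
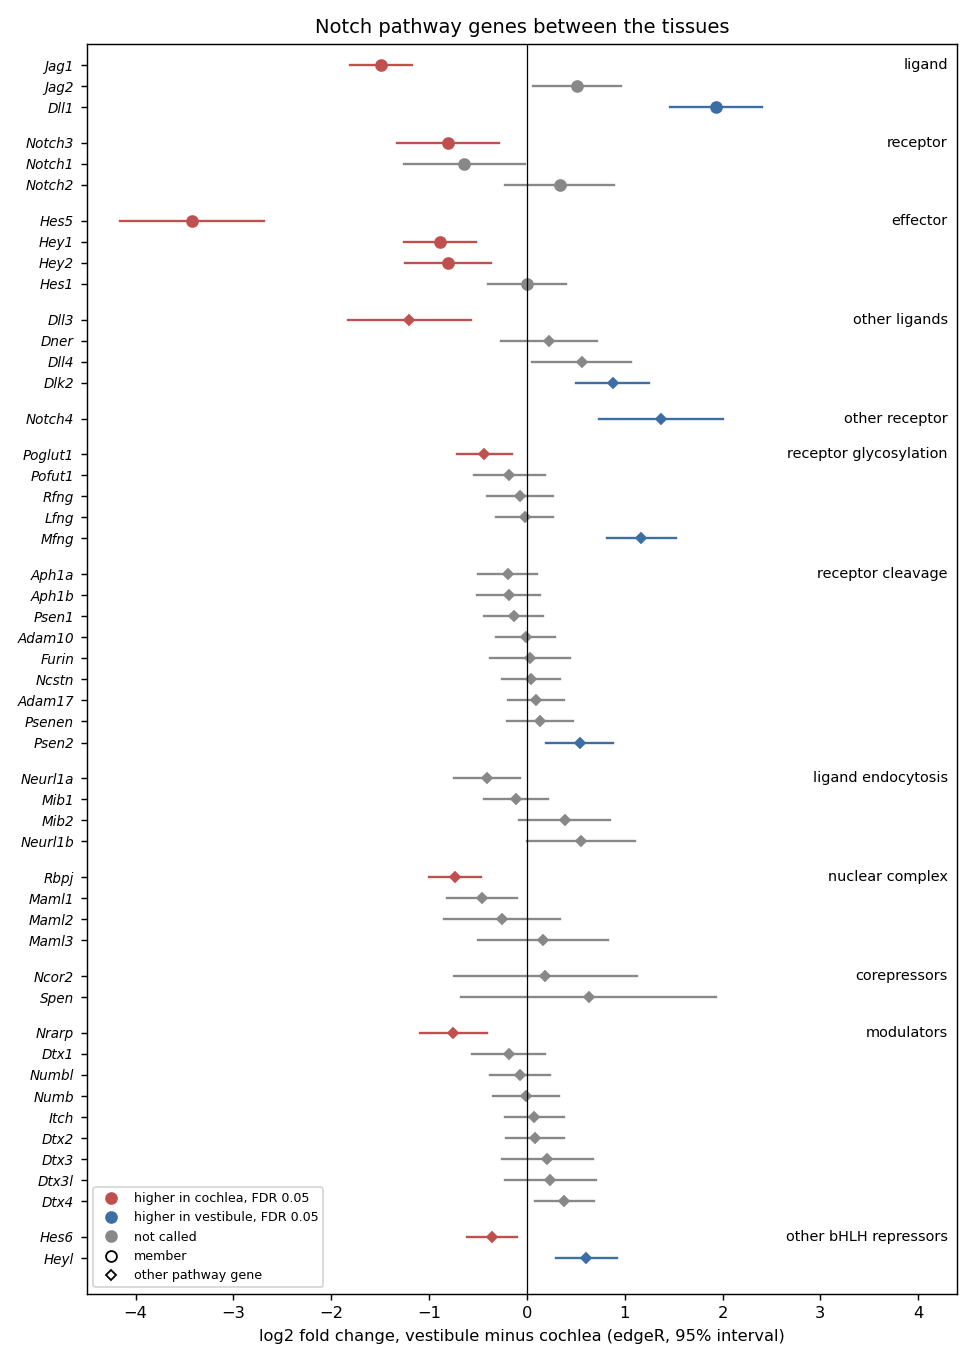
Log2 fold change (vestibule minus cochlea) with its 95% interval for the 10 members (circles) and the 40 tested genes of the rest of the pathway (diamonds), grouped by role. Red genes were called higher in the cochlea, blue ones higher in the vestibule and grey ones were not called. Of the members 5 are red and 1 is blue, and of the other genes 5 are red and 5 are blue.

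The likeness of 2 genes was measured as the root mean square distance between their log2 CPM over the 6 libraries, each centred on its own mean, against 49 other tested genes (the other members and the pathway list) for each member. The closest pairs were Jag2 with Mib2 at 0.065, an enzyme of ligand endocytosis, and Hey1 with Nrarp at 0.116. Notch2 was also closest to Mib2, at 0.136, and Hes1 to Psenen, at 0.148. Hey2 was closest to Hey1, at 0.160, and Notch1 and Notch3 were closest to each other, at 0.210. Jag1 was closest to Dll3, at 0.254, and Dll1 to Notch4, at 0.397. Hes5 had no close profile, the nearest being Jag1 at 0.992, and Dll1 and Hes5 were the members farthest apart, at 2.68. These distances take in the difference between the tissues and the spread within them.

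Within a tissue, the receptors, Jag2 and Dll1 deviated in the same direction in replicates 1 and 3. Relative to the mean of the cochlea, Notch1, Notch2 and Notch3 lay at -0.67, -0.52 and -0.48 (log2) in cochlea replicate 1 and at 0.42, 0.43 and 0.53 in cochlea replicate 3. In the vestibule they were highest in replicate 1, at 0.30, 0.29 and 0.07, and lowest in replicate 3, at -0.17, -0.29 and -0.07. Jag2 lay at -0.28 and 0.39 in cochlea replicates 1 and 3 and at 0.18 and -0.25 in vestibule replicates 1 and 3, and Dll1 at -0.31, 0.26, 0.15 and -0.15 in the same libraries. Hes1 and Hey1 lay on the other side in most of these libraries, with Hes1 at -0.16 in cochlea replicate 3 and -0.26 in vestibule replicate 1. Hey2 lay on the other side in each, at 0.09 and -0.42 in cochlea replicates 1 and 3 and at -0.06 and 0.09 in vestibule replicates 1 and 3. Hes5, a short gene with 1363 exonic bases, lay at -0.15, 0.42, -0.25 and -0.20 in the same libraries, so with the receptors in all but vestibule replicate 1. The receptors are long genes, with 8089 to 14232 exonic bases, and deviations in the same directions were measured across genes by length. With the 14616 tested genes that have an annotated length split into 5 groups of like size by length, in the longest group (7657 bases or more) the median was -0.09 in cochlea replicate 1, 0.13 in cochlea replicate 3, 0.15 in vestibule replicate 1 and -0.13 in vestibule replicate 3. In the shortest group (2476 bases or fewer) it was 0.06, -0.10, -0.16 and 0.16. The deviations of the receptors were larger than the medians of the longest group in every one of these libraries except for Notch3 in the vestibule. A median over many genes varies less than a single gene, and the spread within the group was not measured. So the receptors are not shown to deviate more than other long genes, and the part of length in these values was not tested. Dll1, with 4219 exonic bases, is in the middle group, whose medians were between -0.00091 and 0.014. With the trend on length removed from each library, Notch1 passed the test, at a log2 fold change of -0.71 and an edgeR adjusted p of 0.0229, and with the trend centred on its median at -0.61 and 0.0467.

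**Figure D4:**
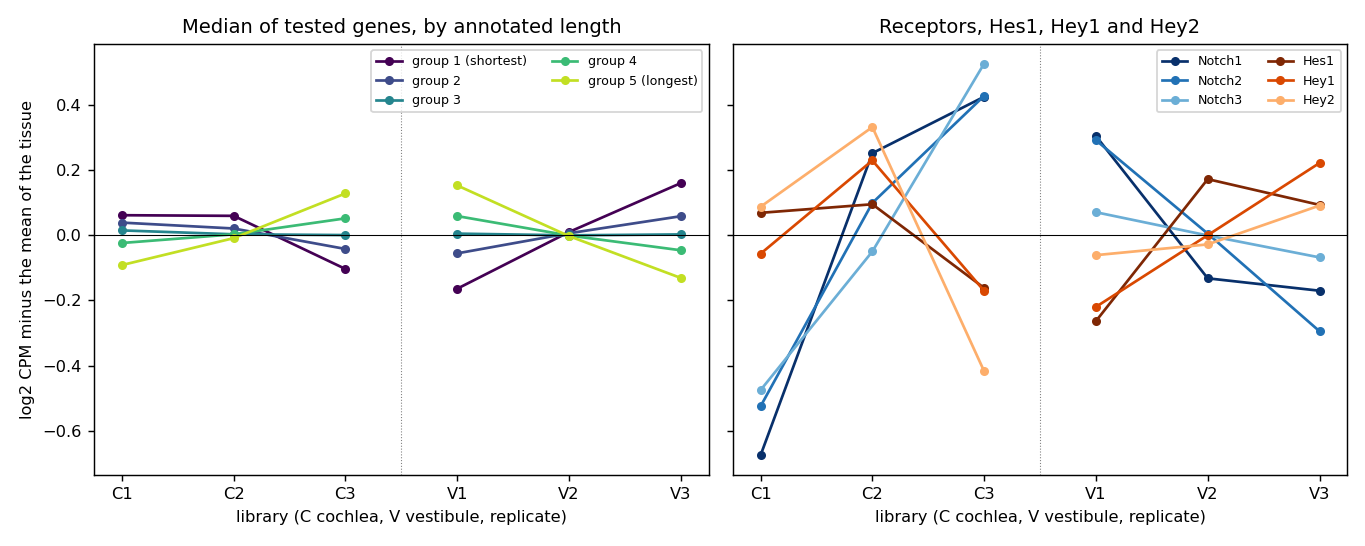
Log2 CPM minus the mean of the tissue for each library, as medians of the 14616 tested genes with an annotated length in 5 groups by gene length (left) and for the receptors, Hes1, Hey1 and Hey2 (right). Lines join libraries of a tissue only to guide the eye, since replicates have no order. The receptors lie low in cochlea replicate 1 and high in cochlea replicate 3.

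Markers of the cell types in the tissue differed as well, and their part in the results was not tested. Of 7 supporting cell markers, 5 were called higher in the cochlea, with summed levels of 1234 to 1393 CPM (cochlea) and 597 to 715 CPM (vestibule), and 1 higher in the vestibule, beside the higher Jag1, Hes5, Hey1 and Hey2 of the cochlea. Gjb2 alone had 682 to 759 CPM (cochlea) and 156 to 212 CPM (vestibule), and without it the other 6 summed to 552 to 634 CPM and 435 to 517 CPM. Of 8 hair cell markers, 5 were higher in the vestibule and 0 in the cochlea by edgeR, with sums of 559 to 772 CPM (cochlea) and 1023 to 1301 CPM (vestibule), beside the higher Dll1 there. Of 8 endothelial markers, 6 were higher in the vestibule and 1 in the cochlea, with 199 to 269 CPM and 446 to 626 CPM, beside the higher Notch4. Of 8 markers of pericytes and smooth muscle, 7 were higher in the vestibule, with sums of 237 to 311 CPM (cochlea) and 377 to 479 CPM (vestibule), the opposite direction to Notch3. Myh11 is among those 7 and passed the filter through the vestibule alone, so it had to differ. No marker in these 4 lists was at 0 in any library. Of the other lists, 3 of 6 neuronal markers were called higher in the cochlea, although their sums overlap, at 545, 478.5 and 167 CPM in the cochlea (lowest in replicate 3) and 326, 110 and 137 CPM in the vestibule. The shares of all genes called were 11.6% for cochlea and 15.8% for vestibule, and beside these 2 of 7 markers of Schwann cells and glia were higher in the vestibule, mesenchymal markers were called 2 and 3 of 8 and cartilage markers 1 and 1 of 5 in cochlea and vestibule. The sums for Schwann cells and glia were 676.5 to 795.5 CPM (cochlea) and 1106 to 1354 CPM (vestibule). Those of mesenchyme were 5021 to 5747 CPM and 7598 to 8757 CPM, of which Col1a2 alone had 1867 to 2501 CPM and 4617 to 5251 CPM. The cartilage sums overlapped. Skeletal muscle markers summed to 238 CPM in cochlea replicate 3 and to between 3.92 and 20.5 CPM in the other libraries, so cochlea replicate 3 held the highest muscle and the lowest cochlear neuronal sum. In that library 7 of the 10 members had their highest cochlear level (log2 CPM after TMM scaling), as did 37.8% of all tested genes, and Hes1, Hey1 and Hey2 their lowest, as did 38.0%.

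The depth of the libraries was 24464483 to 29225105 counts on genes in the cochlea and 25476572 to 33664793 in the vestibule, so 1 CPM stands for 24.5 to 33.7 counts. Counts assigned to no gene, 18.5% to 20.6% of those listed, were left out. Libraries of a tissue differed by more than sampling noise, with a chi-square per degree of freedom of 26.6 to 92.7.

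The positions below are those of GRCm38 in GENCODE vM21, and the counts are over the exons of each gene. Of the ligands, Jag1 (ENSMUSG00000027276) lies on chromosome 2 from 137081456 to 137116644, Jag2 (ENSMUSG00000002799) on chromosome 12 from 112907819 to 112929776 and Dll1 (ENSMUSG00000014773) on chromosome 17 from 15367354 to 15376872, all on the minus strand. Of the receptors, Notch1 (ENSMUSG00000026923) lies on the minus strand of chromosome 2 from 26457903 to 26516663, Notch2 (ENSMUSG00000027878) on the plus strand of chromosome 3 from 98013527 to 98150361 and Notch3 (ENSMUSG00000038146) on the minus strand of chromosome 17 from 32120820 to 32166852. Of the effectors on the plus strand, Hes1 (ENSMUSG00000022528) lies on chromosome 16 from 30064384 to 30067796 and Hes5 (ENSMUSG00000048001) on chromosome 4 from 154960923 to 154962371. On the minus strand, Hey1 (ENSMUSG00000040289) lies on chromosome 3 from 8663359 to 8667256 and Hey2 (ENSMUSG00000019789) on chromosome 10 from 30832359 to 30842801. Besides Dll1, Notch1, Notch3 and Hes5 share exonic bases with genes on the opposite strand, which had at most 18, 7 and 1 counts in a library.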

How the data were processed

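The 10 members, the other pathway genes and the marker lists were chosen with earlier results of these data known. Reads were aligned by the authors with TopHat2 2.1.0 to GRCm38 and counted per Ensembl gene with HTSeq 0.5.4p5, per the submitters' processing notes, and the deposited counts are whole numbers without normalization. The deposited matrix holds log2 RPKM of 14722 genes, made by the authors with edgeR and found here to be scaled by library size without TMM. The 5 summary lines of each count file were left out of library sizes and tests.

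The filter asked for 1 CPM in 3 libraries. The test was the quasi-likelihood test of edgeR 4.0.16 (R 4.3.3) with TMM, Benjamini-Hochberg over all genes and an FDR of 0.05, and it was also tested on simulated data. Named are all members and, of the pathway list, the 3 genes with the largest change in each direction among those called without overlap. Other pathway genes are named to complete counts of 5 or fewer and, like Lfng and Rfng, were picked after their values were seen. A prior count of 0.5 was added for log2 CPM. Alternatives were other scalings, filters and tests, DESeq2 1.42.0 and limma-voom (limma 3.58.1), a replicate block, leaving out each library, and, chosen after seeing the data, the removal of a trend on gene length with and without centring (107 genes without an annotated length were given the median) and the leaving out of libraries with the gene set kept. Coordinates and lengths are from GENCODE vM21, not the Ensembl release the authors used.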

Additional observations from a re-analysis of the deposited data

How the results depend on the processing

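Jag1, Dll1 and Hey1 passed the test under all 23 alternatives, Hes5 under all 19 in which it was tested, Hey2 under 17 and Notch3 under 13, always in the same direction. Notch1 passed under 6, Jag2 under 3, and Notch2 and Hes1 under 0. Hes5 was not tested with 1 CPM asked of all 6 libraries, or without any 1 cochlear library when the filter was applied again to the 5 left. It passed the filter through the cochlea alone, so it had to differ in every setting that rests on that filter. With no filter its log2 fold change was -3.44 with an edgeR adjusted p of 3.9e-07. Keeping the gene set when a library was left out, and the centring of the length trend, were added after these results were seen, and both versions are given.

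With 1 library left out, the members called numbered 2 to 5 in the cochlea and 1 to 2 in the vestibule, the pathway genes 3 to 5 and 3 to 7, and all genes 925 to 1863 and 1342 to 2694. With the gene set kept these were 3 to 6 and 1 to 2, 3 to 5 and 3 to 7, and 995 to 1982 and 1660 to 2731. With library size alone, 3 pathway genes were higher in the cochlea. With the length trend removed, 2762 genes were higher in the cochlea, and with it centred 2 members were higher in the vestibule.

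The labels name no pairing of the libraries, and these data do not settle whether the replicate numbers pair them. Deviations of same-numbered libraries correlated at -0.18, -0.26 and -0.47, and those of differently numbered ones at -0.27 to 0.41. With the replicate block 3 members and 3 pathway genes were higher in the cochlea, 3 pathway genes were higher in the vestibule, and 1009 of all genes were higher in the cochlea, and Notch3 and Hey2 missed the threshold. Of the pathway genes called in the main test, Poglut1, Hes6, Psen2 and Heyl missed it as well.

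Hes1, with no call anywhere, turned its sign: it was -0.018 with DESeq2 size factors or the DESeq2 test, -0.016 with limma-voom, -0.022 with no filter, -0.0055 with the replicate block, -0.18 with the length trend removed and -0.082 with it centred. It ranged from -0.081 to 0.14 with 1 library left out, and with the gene set kept was -0.079, -0.086 and -0.041 without cochlea replicate 3 and vestibule replicates 2 and 3.

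In class shares (vestibule minus cochlea, percentage points), annotation lengths gave 20.7 for Jag2, 9.67 for Dll1, 10.8 for Hes1 and -7.36 for Hes5 in place of 26.1, 7.61, 7.81 and -5.19, and CPM gave 6.75 for Dll1 and -3.24 for Hes5. Causes were not tested. With 3 libraries a tissue, the exact permutation test used for shares cannot go below 0.1.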
